A study of Homo sapiens with 9 samples.

Results

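Transcription factor genes of the myeloid lineages were followed through knock-down and immunoprecipitation of the RNA-associated protein BCLAF1 in MOLM-13 cells: SPI1, IRF8, RUNX1, GATA2, KLF4, GFI1, GFI1B, IKZF1 and ETV6. They were chosen by name, as the rows of the deposited table that carry those symbols, and are 9 of its 56541 genes. All 9 had a row. GFI1B was listed at 0 in all 9 libraries, and the other 8 passed the filter on low counts in both comparisons.

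These factors set the course of blood cell formation. SPI1 (PU.1) and IRF8 bind together at genes of monocytes and dendritic cells, RUNX1 acts with CBFB from the stem cell onward, and GATA2 keeps stem and progenitor cells in place and antagonises SPI1. GFI1 and GFI1B are zinc finger repressors that recruit a histone demethylase complex, IKZF1 (Ikaros) works with the NuRD remodelling complex, ETV6 is an ETS family repressor, and KLF4 is a zinc finger factor of monocyte differentiation.

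MOLM-13 is an established human acute myeloid leukaemia line with a KMT2A rearrangement, which the labels place under blood. The series holds 9 total RNA libraries in 3 groups of 3. Cells of the shCONTROL group carry a control hairpin and cells of the shBCLAF1 group a hairpin that targets BCLAF1, and both groups were read by RNA-seq. The RIP group is the RNA brought down with BCLAF1 protein out of cells that carry the control hairpin. All cells, those of the control hairpin included, had doxycycline at 200 ng/µL for 4 days. More cells went into each RIP sample than into each RNA-seq sample. The labels name no mock precipitation, do not say whether the line is 1 clone, and do not say whether replicates were separate cultures, so p-values measure the spread between these samples, which may be technical. In bulk RNA, fewer cells of a type and less RNA per cell cannot be told apart.

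Totals per library ran from 25819144 to 36635268 counts, so that 3 counts were worth 0.0819 to 0.116 CPM, the usual scale of counts relative to the library total. Levels below are CPM scaled by edgeR's TMM factors over the 9 libraries. BCLAF1 itself, the target of the hairpin, stood at 325, 328 and 312 CPM in shCONTROL replicates 1, 2 and 3 and at 115, 125 and 99.96 CPM in shBCLAF1, a change of -1.50 in log2 (SE 0.09, edgeR adjusted p = 2.06e-04). All 12 markers of KMT2A-rearranged myeloid lines, among them CD33, FLT3 and HOXA9, were above 0 in every library of the 3 groups. Of 22 erythroid and megakaryocyte markers in the table, 18 were listed at 0 in all 3 shCONTROL libraries, GATA1, KLF1 and PF4 among them. Of 20 lymphoid markers, 15 were listed at 0 there, PAX5 and CD3E among them.

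The promoters of 3 factors are shown because GATA2 fell and GFI1 rose in the knock-down, and KLF4 was the factor with the largest enrichment in the RIP. Each is the 250 bases before the outermost annotated start in the RefSeq promoter table (GRCh38.p14), on the strand of the gene. All 3 lie on the minus strand, at chr3:128493202-128493451 for GATA2, chr1:92486926-92487175 for GFI1 and chr9:107489770-107490019 for KLF4. Capitals mark matches to the motifs listed after the sequences, on either strand.
GATA2: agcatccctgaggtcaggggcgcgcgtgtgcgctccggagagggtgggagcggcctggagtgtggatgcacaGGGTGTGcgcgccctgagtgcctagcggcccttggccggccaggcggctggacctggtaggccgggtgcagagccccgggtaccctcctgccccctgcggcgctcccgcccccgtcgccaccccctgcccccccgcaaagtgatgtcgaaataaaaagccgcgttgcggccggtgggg
GFI1: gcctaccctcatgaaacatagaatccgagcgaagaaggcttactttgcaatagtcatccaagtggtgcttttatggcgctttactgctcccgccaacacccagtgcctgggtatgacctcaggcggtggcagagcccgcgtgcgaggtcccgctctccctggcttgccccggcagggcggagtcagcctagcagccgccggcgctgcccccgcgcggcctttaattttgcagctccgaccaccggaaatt
KLF4: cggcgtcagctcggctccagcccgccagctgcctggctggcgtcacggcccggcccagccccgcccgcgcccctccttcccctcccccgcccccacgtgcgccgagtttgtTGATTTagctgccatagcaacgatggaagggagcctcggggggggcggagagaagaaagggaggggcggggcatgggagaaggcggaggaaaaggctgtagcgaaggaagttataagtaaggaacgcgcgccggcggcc
The motifs searched were GAGGAAGT for SPI1, TGTGGT for RUNX, AGATAA for GATA, GAAANNGAA for IRF, AAATCA for GFI1, GGGTGTG for KLF, TGGGAA for IKZF and CCGGAAG for ETS. None of these overlapped another in the printed bases. GATA2 held the KLF motif 178 bases before its start, which 7.56% of the 35116 promoter windows of 300 bases held. KLF4 held the GFI1 motif on the opposite strand, 139 bases before its start, as did 13.2% of windows. GFI1 held none of the 8 motifs in the bases shown, and its 2 other annotated starts held matches upstream. The first of them held the RUNX motif 47 bases before the start, as did 13.1% of windows. The other held the IKZF motif at 115 bases, as did 24.0% of windows, and the ETS motif on the opposite strand at 242 bases, as did 10.3%. Both annotated windows of GATA2 lacked the GATA motif AGATAA, which 10.3% of windows held. These matches describe the letters, and the start used in these cells was not measured. SPI1 had no entry in the promoter table.

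In shCONTROL cells the 8 detected factors were even across replicates. SPI1 (chr11:47354860-47378547, GRCh38.p14, as for all loci here) stood at 249 ± 8.66 CPM (SD, n = 3), IRF8 (chr16:85899162-85922609) at 395 ± 15.9, and RUNX1 (chr21:34787801-35049302) at 410 ± 7.99. GATA2 (chr3:128479422-128493201) stood at 138 ± 3.99 CPM and KLF4 (chr9:107484852-107489769) at 6.63 ± 0.430. GFI1 (chr1:92473043-92486925) stood at 238 ± 3.52 CPM, IKZF1 (chr7:50303455-50405101) at 343 ± 7.49 and ETV6 (chr12:11649674-11895377) at 236 ± 12.4. CPM is not divided by transcript length, so these levels are compared between groups for a gene and not between genes. KLF4 was the member of the 8 with few counts, and GFI1B (chr9:132945531-132993434), the erythroid and megakaryocyte paralogue of GFI1, was listed at 0.

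**Figure D1:**
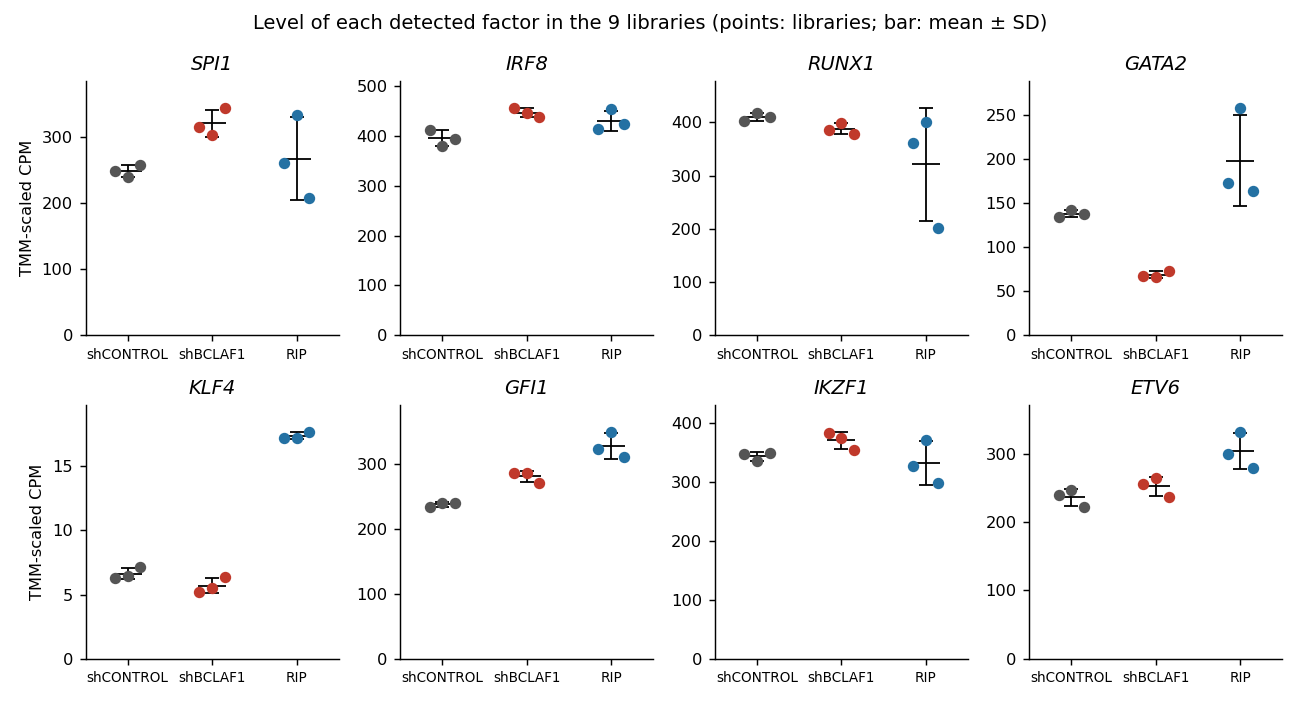
Level of the 8 detected factors in each library, on the y axis as TMM-scaled CPM from 0, with shCONTROL, shBCLAF1 and RIP on the x axis. Points are libraries and bars are the mean ± SD (n = 3). GATA2 in shBCLAF1 lies below all its other libraries, KLF4 in RIP lies above all its others, and the RIP libraries of RUNX1, SPI1 and GATA2 spread widely.

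The first comparison, shBCLAF1 against shCONTROL, asks how the factors' RNA differs when BCLAF1 is reduced. GATA2 fell to 50.0% of its shCONTROL level, SPI1, GFI1 and IRF8 rose to 129%, 118% and 113%, and IKZF1, ETV6, RUNX1 and KLF4 did not pass the test. By edgeR's quasi-likelihood test, with an adjusted p under 0.05 as the threshold, 3 of the 8 tested rose and 1 fell. Over all 16961 genes tested, 32.3% were called, 15.5% higher and 16.9% lower. The members' median log2 fold change was 0.11, against 0.02 over all genes.

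GATA2, the stem and progenitor factor, was at 134, 142 and 137 CPM in shCONTROL replicates 1, 2 and 3 and at 67.2, 66.2 and 72.8 CPM in shBCLAF1. The groups lay far apart, with the highest shBCLAF1 library under the lowest shCONTROL library. The fitted change was -0.997 in log2 (SE 0.05, adjusted p = 1.64e-04), and 7.56% of all genes tested had a larger change in either direction. The value lay between -1.04 and -0.95 in 14 alternative analyses, each past the threshold.

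SPI1, the pioneer factor of myeloid cells, was at 249, 240 and 257 CPM in shCONTROL and at 315, 303 and 343 CPM in shBCLAF1. Every shBCLAF1 library was above every shCONTROL library, and the fitted log2 change was 0.37 (SE 0.06, adjusted p = 0.00418). GFI1, a repressor of monocytic genes in granulocyte precursors, was at 234, 240 and 241 CPM in shCONTROL and at 286, 287 and 271 CPM in shBCLAF1. These groups did not overlap either, and GFI1 rose by 0.24 in log2 (SE 0.04, adjusted p = 0.00465). IRF8, the partner of SPI1, was at 412, 380 and 394 CPM in shCONTROL and at 456, 447 and 437 CPM in shBCLAF1. Its groups were apart by less, and the rise was 0.18 in log2 (SE 0.04, adjusted p = 0.0185). The median size of change over all genes tested was 0.27 in log2. SPI1 changed by more than this, and GFI1 and IRF8 by less. Of genes tested, 37.0% had a larger change than SPI1, 54.1% a larger change than GFI1 and 64.5% a larger change than IRF8. All 3 lost the call when the 9 libraries were fitted together, with adjusted p = 0.169 for SPI1, 0.0550 for GFI1 and 0.145 for IRF8. IRF8 also lost it without shCONTROL replicate 3 (adjusted p = 0.0633), shBCLAF1 replicate 1 (0.0558) or shBCLAF1 replicate 2 (0.0621).

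The other 4 factors did not pass the test. IKZF1 was at 346, 334 and 348 CPM in shCONTROL and at 382, 374 and 354 CPM in shBCLAF1, groups that did not overlap, and differed by 0.11 in log2 (SE 0.04, adjusted p = 0.0862). IKZF1 passed without shBCLAF1 replicate 3, its lowest library of that group, at 0.15 (adjusted p = 0.0268). RUNX1 was at 402, 418 and 411 CPM in shCONTROL and at 386, 399 and 378 CPM in shBCLAF1, a log2 difference of -0.08 (SE 0.04, adjusted p = 0.174). ETV6 was at 239, 247 and 222 CPM in shCONTROL and at 255, 265 and 237 CPM in shBCLAF1, and these groups overlapped (0.10, SE 0.06, adjusted p = 0.269). KLF4, with 6.32, 6.46 and 7.12 CPM in shCONTROL and 5.23, 5.50 and 6.36 CPM in shBCLAF1, overlapped narrowly (-0.21, SE 0.12, adjusted p = 0.218). In all, 6 of the 8 factors had groups that did not overlap, where 49.3% of all genes tested did so.

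**Figure D2:**
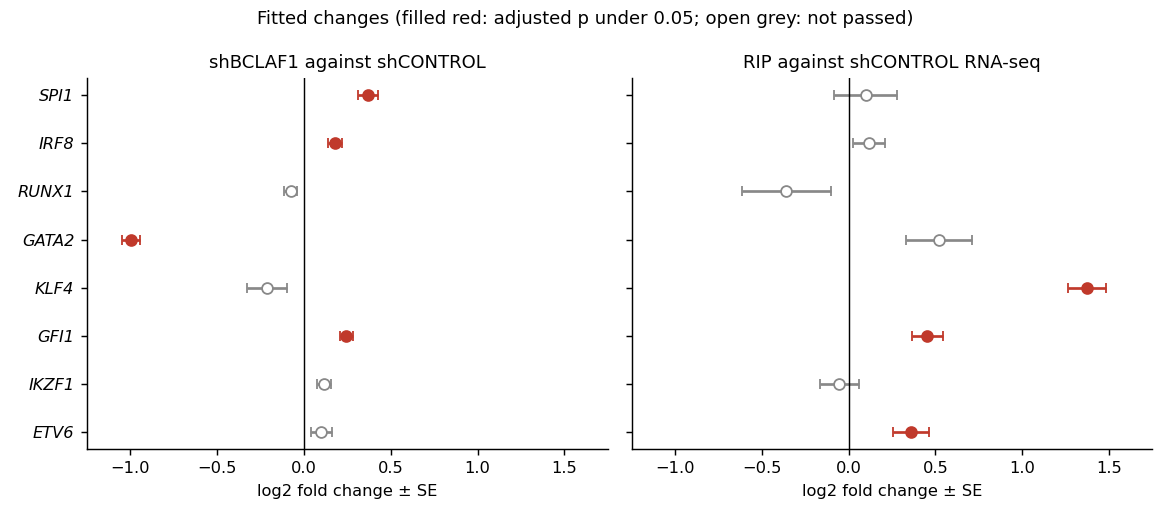
Fitted log2 fold change ± SE of the 8 factors, on the x axis, for shBCLAF1 against shCONTROL (left) and for RIP against shCONTROL RNA-seq (right). Filled red points have an adjusted p under 0.05 and open grey points do not. GATA2 at -0.997 lies farthest from 0 on the left and KLF4 at 1.37 on the right.

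Because GATA2 and its antagonist SPI1 moved in opposite directions, their ratio within each library moved further than either. The ratio of SPI1 to GATA2 CPM was 1.86, 1.69 and 1.87 in shCONTROL replicates 1, 2 and 3 (1.81 ± 0.0999) and 4.69, 4.57 and 4.72 in shBCLAF1 (4.66 ± 0.0741), which is 2.57 times as high. GFI1 to GATA2 likewise went from 1.73 ± 0.0326 to 4.11 ± 0.333. In the RIP the ratio of SPI1 to GATA2 was 1.51, 1.29 and 1.27, below every shCONTROL library. With 3 libraries against 3, the exact two-sided permutation test gave p = 0.1 for each of these 3 comparisons, the smallest p this design allows, so none can pass 0.05. For the knock-down ratios no other p was possible, since the groups of each gene were already apart, in opposite directions. The ratio needs no scaling between libraries.

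**Figure D3:**
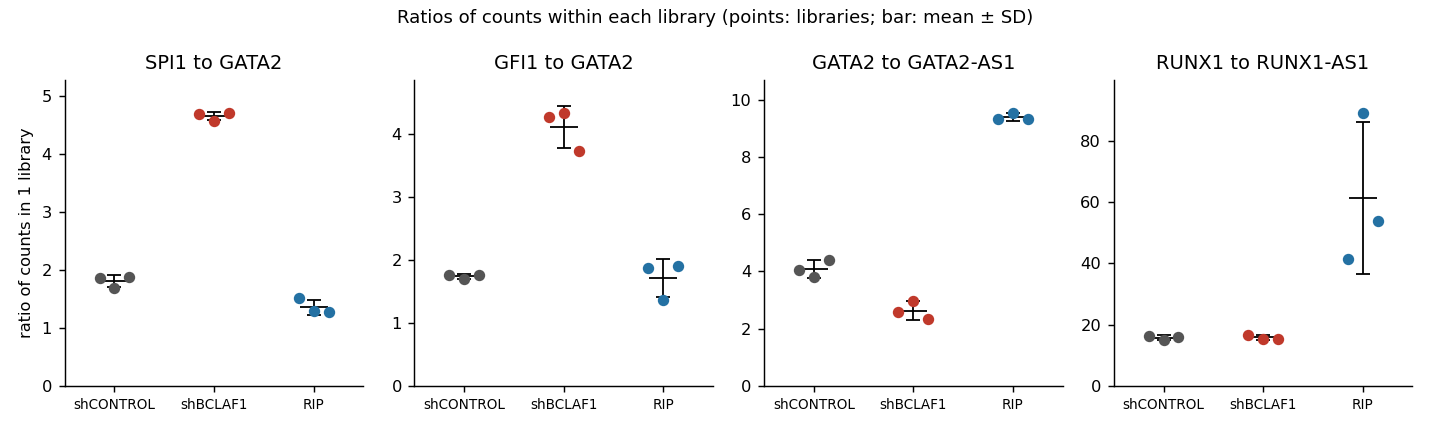
Ratios of CPM within each library on the y axis, from 0, by group on the x axis. Points are libraries and bars are the mean ± SD (n = 3). The ratio of SPI1 to GATA2 is near 4.66 in shBCLAF1 against 1.81 in shCONTROL, and the ratio of GATA2 to its antisense gene is near 9.41 in RIP.

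The second comparison sets RNA precipitated with BCLAF1 against the RNA-seq of the same shCONTROL cells. It shares the shCONTROL libraries with the knock-down comparison, so the values of both are given side by side and not correlated. With no mock precipitation, a higher level in the RIP cannot be told apart from RNA that is carried through any precipitation. KLF4, GFI1 and ETV6 were higher in the RIP at 262%, 138% and 129% of their shCONTROL levels, and none of the 8 factors was called lower. Over all 16727 genes tested, 49.2% were called, 24.6% higher and 24.7% lower. KLF4 was the single factor enriched by a log2 fold change of at least 1, as were 11% of genes tested. The members' median was 0.24, against -0.05 over all genes.

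KLF4 was at 17.2, 17.2 and 17.7 CPM in RIP replicates 1, 2 and 3, against at most 7.12 CPM in any RNA-seq library. In log2 the fitted difference was 1.37 (SE 0.11, adjusted p = 3.82e-04), it stayed between 1.26 and 1.49 in 16 alternatives, each past the threshold, and 20.3% of genes tested had a larger change. GFI1 was at 323, 350 and 311 CPM in the RIP, all above its shCONTROL libraries, with 0.45 (SE 0.09, adjusted p = 0.00687). ETV6 was at 299.5, 332 and 279.6 CPM, also apart from shCONTROL, with 0.36 (SE 0.10, adjusted p = 0.0299). ETV6 lost the call without shCONTROL replicate 1, 2 or 3, at adjusted p = 0.0930, 0.0804 and 0.124, and under the replicate block, at adjusted p = 0.0634.

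GATA2 was at 173, 257 and 163 CPM in the RIP, above all shCONTROL libraries but widely spread, and its fitted log2 difference was 0.52 (SE 0.19, adjusted p = 0.0661). It passed without RIP replicate 2 at 0.28 (adjusted p = 0.0171) and without RIP replicate 3 at 0.65 (adjusted p = 0.0375). Set beside the mean of both RNA-seq groups it was 1.02 higher (adjusted p = 2.61e-04), and that mean holds the shBCLAF1 libraries in which GATA2 is low. IRF8 was at 414, 454 and 424 CPM in the RIP (0.12, SE 0.09, adjusted p = 0.338). SPI1, at 261, 333 and 208 CPM, overlapped its shCONTROL libraries (0.10, SE 0.18, adjusted p = 0.675), and IKZF1, at 327, 371 and 297 CPM, did too (-0.05, SE 0.11, adjusted p = 0.709). RUNX1 was at 361, 401 and 201 CPM in the RIP, below shCONTROL by a small margin in replicate 2 and a wide one in replicate 3 (-0.36, SE 0.26, adjusted p = 0.292). Without RIP replicate 3 the RUNX1 value was -0.11. Groups did not overlap for 6 of the 8 factors, where 67% of all genes tested had such groups.

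The spread of the RIP libraries touched these factors unevenly. Of the 8, 7 were highest in RIP replicate 2 and 6 lowest in RIP replicate 3, whereas among 6357 genes with a mean of at least 1000 counts 38.4% were highest in replicate 2 and 32.0% lowest in replicate 3. The coefficient of variation over the RIP libraries was 32.9% for RUNX1, 26.1% for GATA2 and 23.4% for SPI1, against a median of 15.3% over those abundant genes. KLF4, at 1.53%, IRF8, at 4.76%, and GFI1, at 6.11%, varied little. KLF4 had 438, 486 and 509 counts in RIP replicates 1, 2 and 3, too few to be among those abundant genes. Its coefficient of variation was higher in the RNA-seq groups, at 6.48% in shCONTROL and 10.3% in shBCLAF1. In shCONTROL the median over abundant genes was 4.05%. The part of these library differences in the RIP values was not tested.

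GATA2 and RUNX1 each have an antisense gene in the table. The deposited counts come from stranded libraries, but the strand setting of the counting is not given in the sources used here, so reads of a gene and its antisense partner may not be fully told apart. GATA2-AS1 (chr3:128489203-128503207) overlaps GATA2 over 3999 bases, 29.0% of the GATA2 span, and its span holds the GATA2 promoter printed above. GATA2-AS1 was at 32.9, 37.3 and 31.1 CPM in shCONTROL and at 25.98, 22.2 and 31.3 CPM in shBCLAF1, groups that overlapped (-0.35, SE 0.14, adjusted p = 0.110). It passed the test without shBCLAF1 replicate 3, at -0.48, and with DESeq2. In the RIP it was at 18.5, 26.9 and 17.5 CPM, lower than in shCONTROL (-0.69, SE 0.19, adjusted p = 0.0273), while GATA2 lay above its shCONTROL levels. The call of GATA2-AS1 was lost in 5 of 15 alternatives, without any 1 shCONTROL library and without RIP replicate 1 or 3, with adjusted p up to 0.0902. The ratio of GATA2 to GATA2-AS1 was 4.09 ± 0.311 in shCONTROL and 2.63 ± 0.331 in shBCLAF1, and reached 9.41 ± 0.131 among RIP libraries.

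RUNX1-AS1 (chr21:34836313-34885052) lies wholly inside RUNX1. It was at 24.6, 27.9 and 25.8 CPM in shCONTROL, at 23.2, 25.8 and 24.7 CPM in shBCLAF1 and at 8.70, 4.49 and 3.75 CPM in the RIP. The knock-down left it close to its shCONTROL level (-0.08, SE 0.08, adjusted p = 0.479), and in the RIP it was depleted (-2.21, SE 0.33, adjusted p = 0.00251). The ratio of RUNX1 to RUNX1-AS1 was 15.8 ± 0.701 in shCONTROL and 15.8 ± 0.748 in shBCLAF1, and reached 61.5 ± 24.8 among RIP libraries. Both sense genes were therefore more abundant relative to their antisense genes in every RIP library than in every shCONTROL library, at an exact permutation p of 0.1, the smallest possible. For GATA2 no other p was possible, since the groups of GATA2 and GATA2-AS1 were already apart, in opposite directions.

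The cofactors and relatives of the members were read in the same fits, from named lists. Over all genes tested in the knock-down, 15.5% were called higher and 16.9% lower. In the knock-down, the corepressor complex that GFI1 recruits had 7 of 12 tested genes lower and 1 higher (median -0.19), and RCOR2, a scaffold of that complex, fell from 6.05 ± 0.416 to 3.80 ± 0.141 CPM (-0.66). That count of 7 was 3 without shCONTROL replicate 3, 4 without shCONTROL replicate 1 or 2 or shBCLAF1 replicate 2, and 2 when all 9 libraries were fitted together. Among stem and progenitor partners of GATA2, 4 of 10 rose and 2 fell (median 0.00). LMO2, a bridging factor of the GATA complexes, rose from 77.9 ± 4.28 to 150 ± 6.17 CPM (0.95), opposite to GATA2 itself, and TAL1, ERG and GATA1 were listed at 0 in shCONTROL. The IKZF family and NuRD complex had 1 of 13 higher and 4 lower (median -0.08), with the paralogue IKZF5 falling from 49.5 ± 0.133 to 30.0 ± 3.01 CPM (-0.72). The share called in that list, 38.5%, was near the 32.3% of all genes. RUNX1 partners and paralogues had 2 of 7 higher and 2 lower (median 0.14), where the 2 lower became 0 without shCONTROL replicate 1 and 1 without shCONTROL replicate 2 or shBCLAF1 replicate 2. CBFB, the obligate partner of RUNX1, was at 135 ± 6.90 and 142 ± 9.65 CPM and did not pass (adjusted p = 0.411). Among the partners of GATA2, the 2 lower became 1 without any single library other than shBCLAF1 replicate 3. When all 9 libraries were fitted together, the partners of GATA2 had 1 higher and 0 lower, those of RUNX1 had 0 in either direction, and the NuRD list had 0 higher and 1 lower. In the NuRD list the 1 higher was lost without any single library other than shCONTROL replicate 2.

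The DNA-binding relatives are read beside 15.5% higher and 16.9% lower over all genes. No gene of the KLF and EGR family rose, and 7 of 14 fell (median -0.38), with EGR3, an immediate early factor, falling from 6.59 ± 1.57 to 2.79 ± 0.625 CPM (-1.22). The 7 became 2 when all 9 libraries were fitted together. The ETS family had 3 of 15 higher and 3 lower (median -0.06), with ELF4 rising from 108 ± 2.36 to 165 ± 8.98 CPM (0.61) and ETV5 falling from 92.9 ± 8.43 to 62.0 ± 5.36 CPM (-0.58). These shares are near those of all genes. The 3 lower became 1 without shCONTROL replicate 3 or shBCLAF1 replicate 1, and the fit of all 9 libraries gave 1 higher and 1 lower. The IRF family had 1 of 8 higher, IRF5 (0.49), and 1 lower, BATF3, a dendritic cell partner of IRF8, which fell from 14.4 ± 0.659 to 4.11 ± 0.279 CPM (-1.80).

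Of the textbook target genes of SPI1, 13 of 24 tested rose and 2 fell (median 0.35), beside 15.5% and 16.9% of all genes. Leaving out any 1 library gave 11 to 13 higher, the fit of all 9 libraries gave 10 higher and 0 lower, and the 2 lower became 4 without shBCLAF1 replicate 3. CYBB, a subunit of the phagocyte oxidase, rose from 11.6 ± 1.02 to 72.2 ± 4.76 CPM (2.64). IRF8 targets had 5 of 15 higher and 3 lower (median 0.22), with CST3, the protease inhibitor cystatin C, rising by 1.19 and BATF3 falling, and the 5 higher became 3 in the fit of all 9 libraries. GFI1 targets had 5 of 17 higher and 6 lower (median -0.10). Among these, ID1, an inhibitor of helix-loop-helix factors, rose by 0.90, and MEIS1, a HOX cofactor, fell from 83.8 ± 2.84 to 45.9 ± 1.57 CPM (-0.86). CSF1, a macrophage growth factor counted 115, 160 and 109 times in shCONTROL, was listed at 0 throughout shBCLAF1, which puts it at least 45.9-fold lower when 3 counts per library are taken as the floor. In each group, 165 to 226 genes were at 0 in at least 1 library beside at least 100 counts in another. CSF1 differs from these, being at 0 throughout its group. Whether any of these values, or other genes listed at 0, are failed estimates was not tested.

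**Figure D4:**
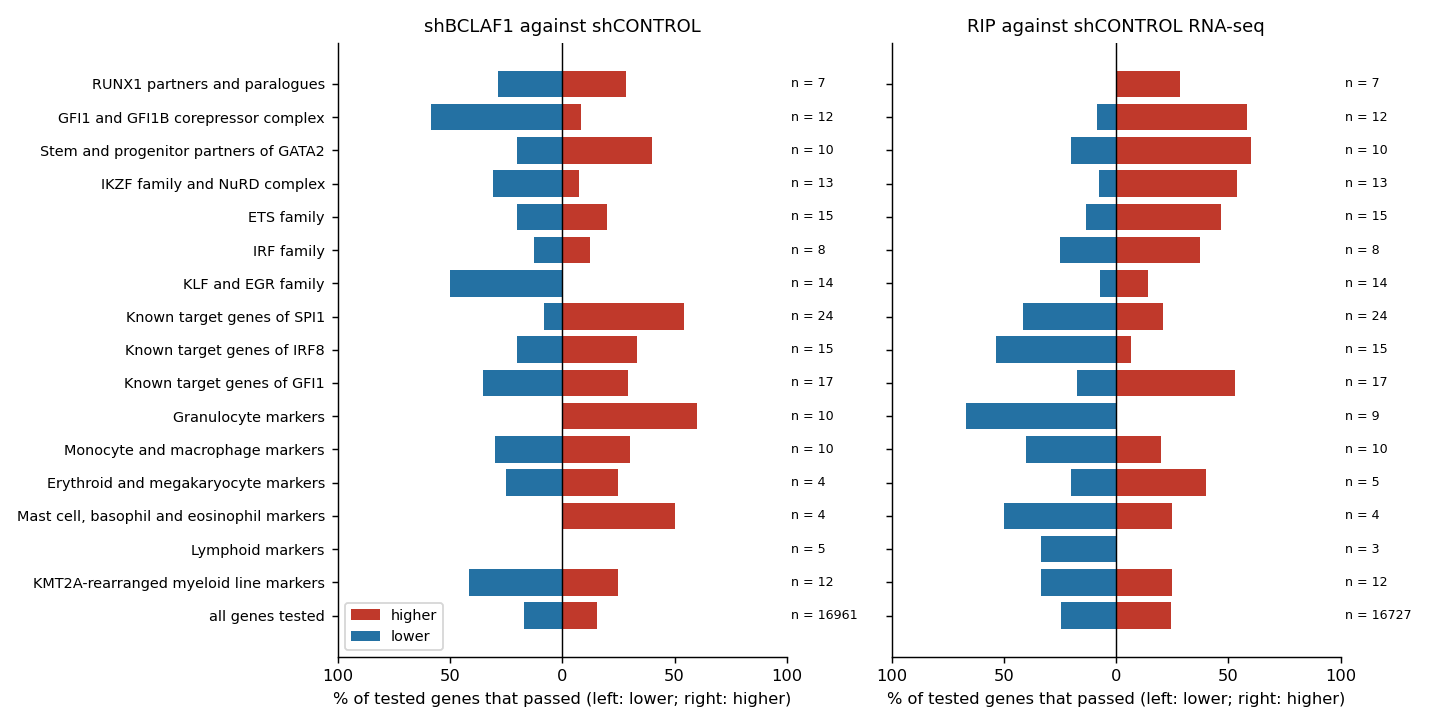
Share of tested genes called higher and lower in each gene list, on the x axis as percent, for the knock-down and the RIP, with lists on the y axis. All genes tested are given for comparison, at 32.3% called in the knock-down and 49.2% in the RIP.

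Markers of myeloid cell types moved beside the members. They are read beside the 15.5% higher and 16.9% lower over all genes tested in the knock-down. Of 18 granulocyte markers, 8 were listed at 0 in all 3 shCONTROL libraries and 7 in all 3 shBCLAF1 libraries. Summed granulocyte markers ran from 3314 to 3877 CPM in shCONTROL, 4838 to 5229 CPM in shBCLAF1 and 1083 to 1199 CPM in the RIP. Of 10 tested, 6 rose in the knock-down with none lower (median 0.58). PRTN3 and AZU1 weighed most in that sum, at means of 89096 and 38387 counts over the RNA-seq libraries. AZU1 rose by 1.05 in log2, and PRTN3 did not pass (0.26, edgeR adjusted p = 0.0700). S100A9, a calcium-binding protein of neutrophils and monocytes, rose from 2.07 ± 0.236 to 25.8 ± 0.971 CPM (3.61). Summed monocyte and macrophage markers ran from 955 to 1067 CPM in shCONTROL, 2700 to 3089 CPM in shBCLAF1 and 326 to 373 CPM in the RIP, and 3 of 10 tested rose and 3 fell (median -0.33). LYZ, lysozyme, carried most of that sum at 729 ± 57.0 and 2639 ± 194 CPM (1.86), while CX3CR1, a monocyte chemokine receptor, fell from 8.51 ± 0.546 to 1.58 ± 0.247 CPM (-2.38), and CD14, FCN1, MRC1 and CD163 were listed at 0. Mast cell, basophil and eosinophil markers summed to 69.0 to 77.0 CPM in shCONTROL and 113 to 128 CPM in shBCLAF1. In that list KIT, HDC and CPA3 were listed at 0, and 2 of 4 tested rose with 0 lower. PRG2 carried most of the sum, at a mean of 3092 counts over the RNA-seq libraries, and rose by 0.81 in log2. Erythroid and megakaryocyte markers summed to 56.9 to 65.7 CPM and 63.5 to 76.0 CPM, and lymphoid markers to 33.5 to 37.0 CPM and 29.8 to 35.9 CPM. The erythroid and megakaryocyte sum joined opposite changes, with 1 of 4 tested higher and 1 lower. NFE2 rose by 0.90 in log2. VWF, with 393, 474 and 402 counts in shCONTROL, was listed at 0 throughout shBCLAF1. The part of these marker shifts in the members' changes was not tested.

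In the RIP the lists of cofactors held more genes called higher than lower, beside 24.6% higher and 24.7% lower over all genes. The GFI1 corepressor complex had 7 of 12 higher, 5 of them enriched, and 1 lower (median 0.85). HDAC1, its deacetylase, rose from 142.2 ± 3.304 CPM in shCONTROL RNA-seq to 509 ± 203 CPM in the RIP (1.83), and HMG20B, a subunit that binds DNA, from 85.4 ± 2.697 to 271 ± 61.9 CPM (1.66). NuRD and IKZF genes had 7 of 13 higher and 1 lower (median 0.50), with MBD3 at 143 ± 7.41 and 476 ± 71.8 CPM (1.73), and that 7 became 4 without shCONTROL replicate 2. GATA2 partners had 6 of 10 higher and 2 lower (median 0.61), LMO2 among the lower at -0.74. The ETS family had 7 of 15 higher and 2 lower (median 0.22), the IRF family 3 of 8 higher and 2 lower (median 0.20), and the KLF and EGR family 2 of 14 higher and 1 lower (median -0.02). Without any 1 shCONTROL library the 2 lower of the IRF family became 0 and the 2 higher of the KLF and EGR family became 1, as the latter did without RIP replicate 2. BATF, an AP-1 partner of IRF factors, rose from 6.60 ± 0.842 to 26.4 ± 6.11 CPM (1.98).

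SPI1 targets in the RIP had 5 of 24 higher and 10 lower (median 0.06), beside 24.6% higher and 24.7% lower over all genes. The 10 lower became 5 without shCONTROL replicate 2 or 3 and 6 without shCONTROL replicate 1 or RIP replicate 1. VAV1, a signalling exchange factor, rose by 1.40, whereas LYZ fell from 729 ± 57.0 to 46.8 ± 13.1 CPM (-3.97). IRF8 targets had 1 of 15 higher and 8 lower (median -0.48), CST3 among them at -2.54, and the 8 became 5 without any 1 shCONTROL library. GFI1 targets had 9 of 17 higher and 3 lower (median 0.50), with JUN at 1.86 and ELANE, neutrophil elastase, at -1.95. Without any 1 shCONTROL library the 9 higher became 4 and the 3 lower became 1. Granulocyte markers had none of 9 higher and 6 lower (median -0.66), and the 6 became 3 without shCONTROL replicate 3.

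The genes whose level followed each factor most closely over the 9 libraries were found among 11858 candidates by Pearson's r of log2(CPM + 1), as a description of libraries that share groups, depth and scaling. For GATA2 these were MYC (0.996) and RRP1B (0.993), for KLF4 PDCD6IPP1 (0.996) and NOL8 (0.993), and for GFI1 MEGF9 (0.994) and PPP4R3A (0.992). For RUNX1 they were NFKB2 (0.987) and CYB561D1 (0.979), for SPI1 CCM2 (0.974), and for IRF8 CD300LF (0.971) and ADAT1 (0.965). IKZF1 was nearest to RCOR1 (0.974) and WIPF2 (0.968), and ETV6 to CEP350 (0.973) and ARID4B (0.973). Candidates with r above 0.95 numbered 885 for KLF4, 129 for GATA2, 78 for GFI1 and 34 for ETV6. They numbered 18 for RUNX1, 8 for IKZF1, 5 for SPI1 and 2 for IRF8. Over the 6 RNA-seq libraries alone, none of the 8 factors shared a nearest gene with this list. Among the factors themselves, GFI1 and ETV6, both higher in the RIP, were the most alike over the 9 libraries (0.919). Over the 6 RNA-seq libraries their r was 0.681, and the highest was 0.920, for IRF8 and IKZF1.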

How the data were processed

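RNA-seq and RIP libraries of MOLM-13 cells were read from the 1 table of estimated counts per gene that the authors deposited, in whole numbers with no normalization. Per the submitters' processing notes, STAR 2.7.11b, StringTie 2.2.3 and build hg38 were used. The annotation and the strand setting are not given in the sources used here. A row naming no gene (2.18% to 3.75% of counts in 8 libraries) was left out. Groups came from the labels. No replicate libraries were copies, with 0.295% to 0.762% of compared counts equal within a pair.

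Each comparison was fitted over all genes in its 6 libraries with edgeR 4.0.16 (R 4.3.3): filterByExpr, TMM scaling, quasi-likelihood F-test, Benjamini-Hochberg adjustment, threshold 0.05, prior count 2. To be called enriched or depleted in the RIP, a gene also had to differ by 1 or more in log2. The standard error was the log2 fold change over the square root of F. The analysis was tested on simulated data. Alternatives included DESeq2 1.42.0, other scalings, a replicate block, a fit of all 9 libraries and each library left out.

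The members and lists were chosen with earlier results of these data known. All members were named. From each list, up to the 2 highest and 2 lowest changes were eligible, among called genes with a mean of at least 50 counts and groups that did not overlap. Those described, other than SPIB, kept their call in every alternative, a choice made after the values were seen. CBFB, PRTN3 and AZU1 were named outside this rule, also after the values were seen. For each member the 2 genes with the highest correlation were eligible. A few genes that these rules pick are not reported here. Genes listed at 0 were picked as well-known markers. Symbols came from the table, and RefSeq (GRCh38.p14) gave loci and promoters.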

Additional observations from a re-analysis of the deposited data

How the results depend on the processing

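In the knock-down, GATA2 kept its direction and call in all 14 alternatives. The fit of all 9 libraries made 2447 calls (14.05%) where the main one made 5484, and left 0 members higher: SPI1 0.37 (adjusted p = 0.169), GFI1 0.24 (0.0550) and IRF8 0.18 (0.145), by edgeR. IRF8 ran from 0.16 to 0.22 with 1 library left out. IKZF1 passed with DESeq2 (0.11), upper quartile scaling (0.12) and total counts (0.16), and ran from 0.090 to 0.15 with 1 library left out. In the RIP, KLF4 and GFI1 kept their calls throughout. With both RNA-seq groups averaged as the reference, 2 members were enriched, GATA2 was 1.02, SPI1 -0.078 and SPIB, an ETS gene, 0.34. In the main fit of the RIP, SPIB was lower, at -0.82. GATA2 also passed with DESeq2 (0.53) and in the fit of all 9 libraries (0.52), and ran from 0.28 to 0.65 with 1 library left out. ETV6 did not pass with total counts (0.24) or the replicate block (0.35), and ran from 0.28 to 0.42. Scaling to total counts, which moved the median of all RIP values by -0.11, turned SPI1 to -0.023 and IRF8 to -0.0019. Leaving out 1 library turned SPI1 as low as -0.10 (highest 0.25) and IKZF1 as high as 0.023 (lowest -0.15). The causes were not tested.

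Deviations of same-numbered libraries were weakly correlated. For shBCLAF1 with shCONTROL the values were 0.017, 0.074 and 0.038, each above every pair with different numbers (highest 0.011). For RIP with shCONTROL they were -0.020, 0.020 and 0.018, and pairs with different numbers lay both below (-0.065) and above (0.052). Values this small cannot decide whether equal numbers mark paired samples. With the replicate block, 4809 knock-down and 6506 RIP genes were called, and of the members' calls ETV6 in the RIP alone was lost. Of 928 counts over gene lists in these alternatives, 100 moved by more than 1.5 times. Of 1405 values of named list genes, 103 lost the call and 1 reversed. Levels per kilobase were not run, for want of transcript lengths. Depth limits KLF4 most among the detected members, and GFI1B was not measurable.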
